A study of Mus musculus with 24 samples.

Results

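The 10 genes described here encode the 4 subunits of the AMPA receptor and 6 proteins that assemble or accompany it (*Cnih2*, *Cnih3*, *Frrs1l*, *Cpt1c*, *Cacng2* and *Cacng4*). They were chosen by membership of this receptor family, after genotype differences of several of them, *Frrs1l* above all, had been seen in these libraries. They are 10 of the 54658 genes in the table, and all 24 libraries were used. The genotype differences are therefore given as a description, and the counts of genes past a threshold stand beside those over all genes with nothing read from them.

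AMPA receptors are the glutamate-gated ion channels that carry most fast excitatory transmission in the brain. Each channel is assembled from GluA subunits encoded by *Gria1*, *Gria2*, *Gria3* and *Gria4*. In the endoplasmic reticulum, FRRS1L and CPT1C act on newly made subunits, and cornichons (*Cnih2*, *Cnih3*) and transmembrane AMPA receptor regulatory proteins (TARPs, such as *Cacng2* and *Cacng4*) travel with the finished channel and set its trafficking and gating. Edited GluA2 keeps the channel almost impermeable to calcium, and in the cortex these transcripts are mainly those of neurons.

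RNA was measured in the developing dorsal telencephalon of mouse embryos that were either *Cep135* (-/-), called mutants here, or *Cep135* (+/+), called controls. The labels call the mutants null. The study made its null allele with CRISPR/Cas9 as a small deletion carried in the germline, so every cell of the embryo has it. The zygotes it edited had B6.CBA parents, and it kept its mice on a C57BL/6J background. There were 3 mutants (A, B, C) and 3 controls (D, E, F) at E11.5, 3 mutants (1, 2, 6) and 3 controls (3, 4, 5) at E14.5, and cells of the same 6 E14.5 cortices grown with EGF and FGF2 for 12 h and for 24 h, when they form incipient neurospheres. In their titles the 6 E14.5 embryos share 1 prefix and the E11.5 embryos carry 2 others, each with both genotypes, and no label says what a prefix stands for, so stage and any such origin cannot be told apart. The description of the cortex library of mutant 6 gives E11.5, against E14.5 in its title and source, and that of mutants B and C gives another prefix than the title; the titles were followed. The cortex, 12 h and 24 h libraries repeat the same embryos. Genome-wide tests were made with limma on log2 values, and "passed" means an adjusted p under 0.05 over all genes tested in that comparison.

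The libraries held 4732781 to 11645213 reads on genes. The 12 markers of postmitotic neurons summed to 35333 to 38776 normalized read counts in the E14.5 mutants and 43575 to 47235 in the controls, and to 36293 to 42871 in the 24 h mutants and 45680 to 48975 in the 24 h controls. Both pairs of groups stood apart, whereas they overlapped at E11.5 and at 12 h. The 6 microglial markers summed to 740 to 905 in the E14.5 mutants and 388 to 458 in the controls, and to at most 62.5 in culture. Of the 9 ventral telencephalon markers 8 had a mean of at least 10 in both E14.5 groups. Liver markers varied by library and reached 1413 in the 12 h culture of control 4. *Gm42418*, a gene that overlaps ribosomal RNA sequence, took 20.5% to 23.0% of the 24 h mutants and 6.26% to 13.9% of the 24 h controls. *Cep135* itself lay between 173 and 283 in the E14.5 mutants and between 171 and 271 in the controls. Its reads come from the 3′ end, outside the deletion, and so do not check the genotype labels.

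Upstream sequences are shown for 3 genes the values below turn on: *Frrs1l*, with the largest genotype difference, *Cnih2*, lower in every cultured mutant than in any control, and *Gria2*, with the largest rise of the 10 in culture. RefSeq (GRCm38.p6) listed promoters for 7 of the 10 genes. The 250 bases before the annotated start are printed 5′ to 3′ on the strand of the gene. Capitals mark GGGCGG on either strand, a GC box. *Frrs1l* (chr4:56990392-56990641, minus strand) and *Gria2* (chr3:80802836-80803085, minus strand) hold none, and *Cnih2* (chr19:5098522-5098771, minus strand) holds 3.
Frrs1l: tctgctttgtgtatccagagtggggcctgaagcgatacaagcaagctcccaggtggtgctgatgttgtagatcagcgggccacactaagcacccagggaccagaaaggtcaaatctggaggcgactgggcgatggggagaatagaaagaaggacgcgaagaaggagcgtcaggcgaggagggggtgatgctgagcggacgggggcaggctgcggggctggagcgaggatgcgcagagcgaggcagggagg
Gria2: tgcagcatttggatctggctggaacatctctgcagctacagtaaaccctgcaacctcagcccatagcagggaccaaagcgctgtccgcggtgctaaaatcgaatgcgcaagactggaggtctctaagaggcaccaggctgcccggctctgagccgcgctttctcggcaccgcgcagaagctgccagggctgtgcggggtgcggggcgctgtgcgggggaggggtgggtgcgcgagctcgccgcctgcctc
Cnih2: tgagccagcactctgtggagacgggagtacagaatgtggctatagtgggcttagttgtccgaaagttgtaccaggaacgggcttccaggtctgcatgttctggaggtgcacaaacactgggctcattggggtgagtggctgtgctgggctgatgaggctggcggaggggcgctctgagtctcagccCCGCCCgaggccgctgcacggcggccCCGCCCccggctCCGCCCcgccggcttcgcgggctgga

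Of all 32851 promoters of this length, 32.7% held GGGCGG on either strand. The E box CAGATG, a motif of proneural factors, was searched on both strands and found in 14.4%. The E box CAGCTG, which cannot coincide with it, was in 13.0%. Of the 7 promoters listed, 3 held GGGCGG (*Cnih2*, *Cnih3* and *Cpt1c*), 1, that of *Cacng2*, held the latter E box, and 0 held the former. These matches describe letters in the window and not sites of binding. In GRCm38 the 10 genes lie on 9 chromosomes, *Gria1* and *Cacng4* both on chromosome 11, *Gria3* on the X, and none on chromosome 5 with *Cep135*.

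**Figure D1:**
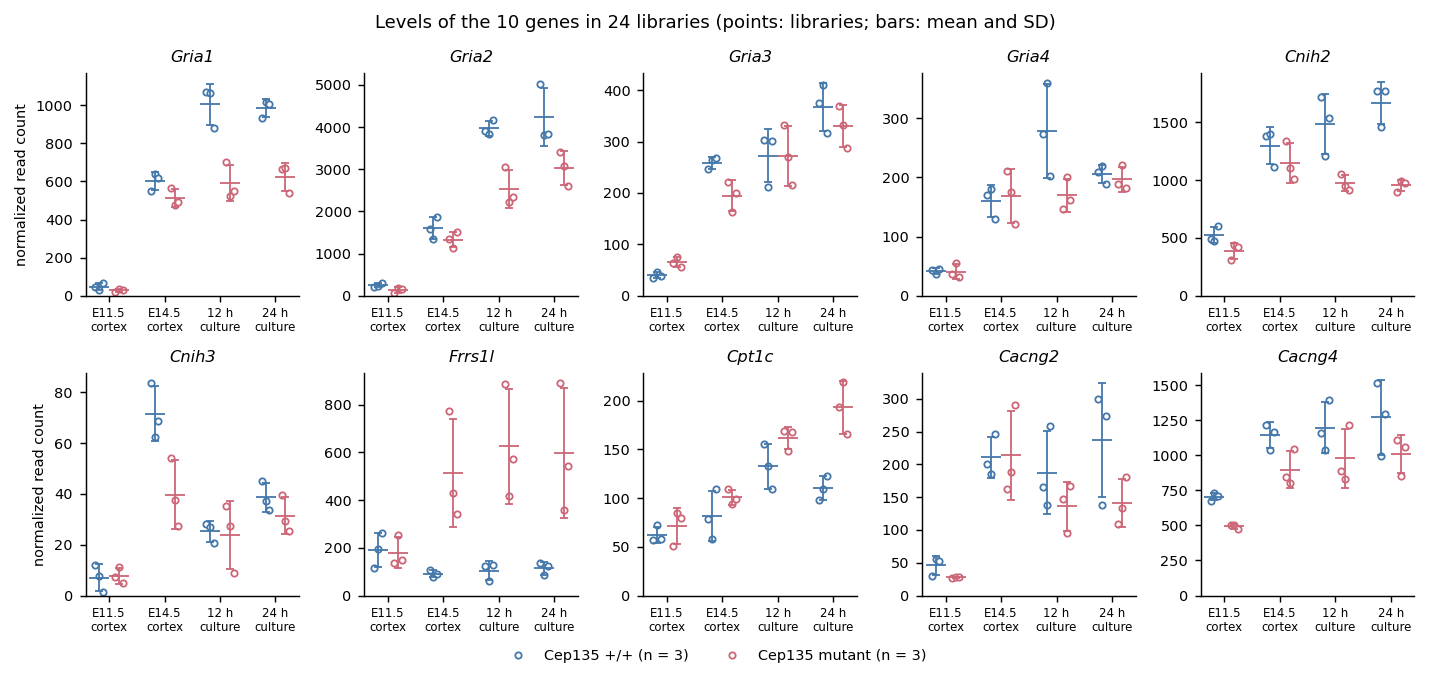
Normalized read counts (y axes, from 0, a separate scale for each gene) of the 10 genes in E11.5 cortex, E14.5 cortex, 12 h culture and 24 h culture (x axes). Open points are libraries, horizontal bars the mean and vertical bars the SD of 3 libraries, in blue for *Cep135* (+/+) and in red for mutants. *Frrs1l* lay between 341 and 891 in the mutants from E14.5 on and between 58.7 and 135 in the controls, and *Gria1* rose from at most 65.3 at E11.5 to at least 478 at E14.5.

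*Frrs1l*, the endoplasmic reticulum factor that helps build AMPA receptors and is a cause of early epileptic encephalopathy when lost, had the largest genotype difference of the 10 genes. In the E14.5 cortex it stood at 771, 428 and 341 normalized read counts in mutants 1, 2 and 6 and at 107, 76.9 and 88.1 in controls 3, 4 and 5. The means were 513 ± 227 (SD, n = 3) and 90.7 ± 15.2 (SD, n = 3), a ratio of 5.66. Every mutant was above every control, and the mutants were spread more widely than the controls.

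The difference was present in culture at a like size. After 12 h *Frrs1l* was at 887, 416 and 572 in the mutants and at 124, 58.7 and 130 in the controls, and after 24 h at 891, 357 and 544 against 135, 84.3 and 123. The log2 differences were 2.41 ± 0.26 (SE) in the E14.5 cortex, 2.59 ± 0.34 at 12 h and 2.31 ± 0.28 at 24 h. Mutant 1 was the highest and control 4 the lowest of the 6 embryos in all 3 settings. The values rest on 50 to 1243 reads per library, the fewest in control 4. Since the 3 settings share the 6 embryos, they are not separate replications of the genotype.

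At E11.5, in other embryos, *Frrs1l* was at 137, 253 and 148 in the 3 mutants and at 117, 193 and 262 in the 3 controls. The groups overlapped, with a log2 difference of -0.07 ± 0.30 (SE). Between E11.5 and E14.5 the gene thus stood lower at the later stage in every control (log2 difference -1.0 ± 0.32, SE) and higher in every mutant (1.48 ± 0.32, SE). The difference between these stage differences was 2.48 ± 0.45 (SE). Since the E14.5 values chose the gene, these are descriptions.

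Sex, read from the X- and Y-linked transcripts, was not balanced among these 6 embryos: mutants 1 and 2 were female and mutant 6 and the 3 controls male. Male mutant 6 was above each of the 3 male controls in all 3 settings. Since both female embryos were mutants, a term for sex leaves mutant 6 alone against the 3 controls. The log2 difference was then 1.91 in the E14.5 cortex, 2.53 at 12 h and 2.27 at 24 h. Per 1000 normalized read counts of the 12 neuron markers, *Frrs1l* was at 9.64 to 19.9 in the E14.5 mutants and at 1.63 to 2.37 in the controls, a ratio of means of 6.80. With a term for the share of *Gm42418*, an alternative chosen after seeing the data, the log2 difference was 2.32 in the E14.5 cortex and 2.64 at 24 h, where it no longer passed.

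*Frrs1l* lies on chromosome 4, from 56957173 to 56990391 on the minus strand. Genes near it were checked for a like pattern. *Tmem245*, a membrane protein gene on the same strand that starts 43.0 kb away, was at 1605, 1022 and 817 in the E14.5 mutants and at 581, 392 and 848 in the controls, and the groups overlapped. *Ctnnal1* (alpha-catulin), 125 kb away, had means of 102 ± 7.5 (SD, n = 3) in the mutants and 69.9 ± 11.3 in the controls, and its groups stood apart. They did so after 24 h as well, at 123 to 186 and 79.2 to 103 (log2 difference 0.75 ± 0.23, SE). *Epb41l4b* and *Fam206a* had log2 differences of 0.32 and 0.09 in the E14.5 cortex. None of these 4 genes passed in any of the 4 genotype comparisons.

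**Figure D2:**
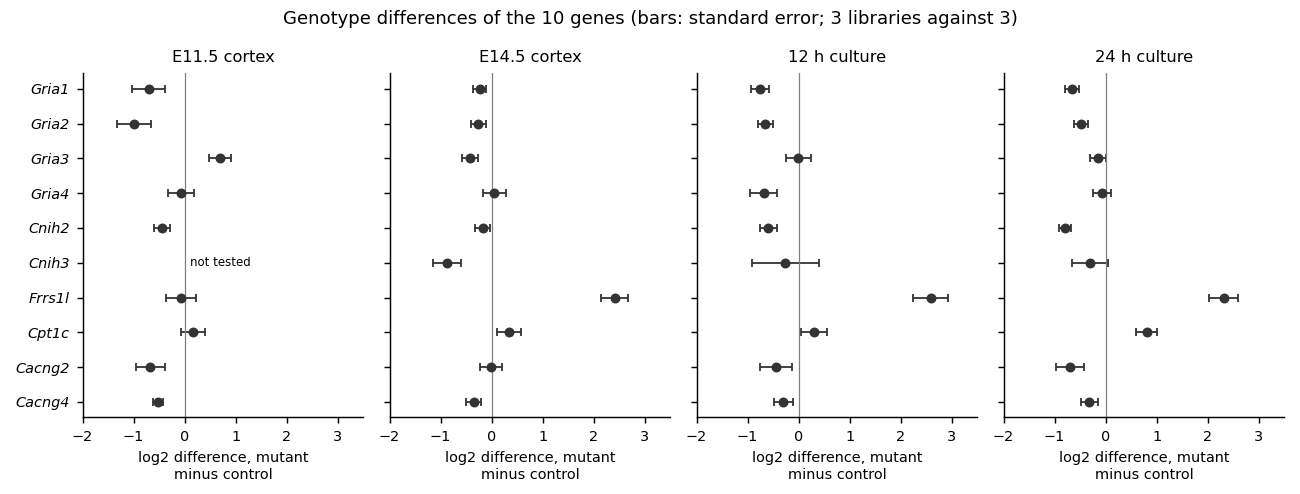
Log2 difference between mutants and controls (x axes, log2(value + 1) scale) for each of the 10 genes (y axis) in the 4 settings. Points are limma estimates and bars their standard errors, 3 libraries against 3. *Frrs1l* is far to the right from E14.5 on, at 2.41, 2.59 and 2.31, while *Gria1*, *Gria2* and *Cnih2* lie left of 0 in each setting. *Cnih3* was too low at E11.5 to be tested.

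Among the subunits, *Gria1* (GluA1) and *Gria2* (GluA2) stood lower in the cultured mutants. *Gria1* was at 701, 526 and 551 in the 12 h mutants and at 1070, 1065 and 878 in the controls, and at 663, 668 and 539.5 against 933, 1020 and 1005 after 24 h. The groups did not overlap at either time, and the log2 differences were -0.77 ± 0.18 (SE) and -0.67 ± 0.13 (SE). In the cortex the same 6 embryos overlapped, with means of 512 ± 47.6 (SD, n = 3) in mutants and 603 ± 47.3 in controls.

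*Gria2* was at 3047, 2225 and 2337 in the 12 h mutants and at 3912, 3829 and 4166 in the controls. After 24 h it was at 3422, 3070 and 2598 against 5030, 3822 and 3848. Again no mutant reached a control at either time, with log2 differences of -0.66 ± 0.15 (SE) and -0.48 ± 0.14 (SE). *Gria4* (GluA4) was at 146, 201 and 162 in the 12 h mutants against 274, 359 and 202, a log2 difference of -0.68 ± 0.26 (SE). By 24 h its groups overlapped, at 182 to 221 and 189 to 219.

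*Cnih2*, the cornichon that slows the closing of AMPA receptors, was also lower in the cultured mutants. It was at 1051, 949 and 918 in the 12 h mutants and at 1715, 1206 and 1534 in the controls. After 24 h it was at 901, 989 and 975.1 against 1775, 1459 and 1768, a control mean 1.75 times the mutant mean. The 3 mutants at 24 h lay close together, and the lowest control was well above them. The log2 difference was -0.60 ± 0.17 (SE) at 12 h and -0.80 ± 0.12 (SE) at 24 h. In the E14.5 cortex the groups overlapped, and in the E11.5 cortex every mutant was lower (310, 442 and 418 against 494, 475 and 604).

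*Cpt1c*, a carnitine palmitoyltransferase of neurons that binds GluA1 in the endoplasmic reticulum, went the other way. It was at 193, 220 and 166 in the 24 h mutants and at 98.3, 110 and 123 in the controls, a log2 difference of 0.80 ± 0.20 (SE). Its groups overlapped in the other 3 settings. At 24 h, then, *Frrs1l* and *Cpt1c* were higher in every mutant than in any control, and *Gria1*, *Gria2* and *Cnih2* were lower. Of all genes tested, 7.15% and 9.06% stood apart in these directions, and the family was chosen with such differences known.

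Markers of neurons moved with these differences at 24 h, as given above, and in bulk RNA fewer neurons and less RNA per neuron cannot be told apart. On the scale of 1000 neuron marker counts, *Cnih2* was at 21.0 to 27.3 in the 24 h mutants and 32.0 to 37.0 in the controls, and *Gria1* at 13.8 to 18.4 and 19.04 to 22.3. The groups of *Cnih2* and *Gria1* stood apart on it. How many of all genes would do so on this scale was not computed, so nothing is read from it. *Gria2* stood apart on this scale at 12 h (54.8 to 74.1 against 83.0 to 92.5) and overlapped at 24 h (66.6 to 84.6 against 80.4 to 103). In the E14.5 cortex *Gria1*, *Gria2* and *Cnih2* all overlapped on it.

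With a term for the share of *Gm42418*, the log2 difference of *Cnih2* at 24 h was -0.50 rather than -0.80, and the part of that share in the result was not tested. *Gm42418* separated the 24 h groups, so in that fit the share and the genotype cannot be told apart. The libraries of the 24 h controls were also shallower, with 4732781 to 5709443 reads against 7903426 to 11645213 in the mutants.

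At E11.5 the pattern across genes was another. *Gria2* was at 63.9, 186 and 154 in the mutants and at 217, 220 and 309 in the controls, a log2 difference of -0.99 ± 0.34 (SE). *Gria3* (GluA3) was at 63.9, 75.8 and 56.2 against 35.3, 46.8 and 38.1, higher in every mutant (0.69 ± 0.21, SE). At E14.5 *Gria3* was instead lower in every mutant, at 221, 162 and 200 against 246, 264 and 268 (-0.42 ± 0.16, SE). The change between the stages was -1.11 ± 0.25 (SE). *Gria3* is X-linked, and with a term for sex the differences were 0.69 and -0.37.

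The TARP genes, whose proteins tether the receptor to synaptic scaffolds, were lower in the E11.5 mutants. *Cacng4* was at 503, 503 and 472 in the mutants and at 676, 733 and 709 in the controls, with little spread in either group (-0.52 ± 0.10, SE). *Cacng2* (stargazin) was at 26.5, 27.9 and 28.1 against 29.2, 56.0 and 52.9 (-0.67 ± 0.28, SE), on 25 to 68 reads. At E14.5 *Cacng4* was at 842, 803 and 1046 against 1218, 1039 and 1169, where mutant 6 was just above control 4 (-0.35 ± 0.14, SE). Over all 12 cortices, with stage as a term, the difference of *Cacng4* was -0.44 ± 0.08 (SE). *Gria1* and *Cnih2* had E11.5 differences of -0.70 ± 0.32 (SE) and -0.44 ± 0.16 (SE). *Cnih3*, the second cornichon, had 2 to 12 reads at E11.5 and was at 54.2, 37.5 and 27.4 in the E14.5 mutants against 83.5, 62.4 and 68.9, lower in every mutant (-0.88 ± 0.27, SE).

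Counts of separated groups stand beside the same counts over all genes. At E11.5, 4 of the 10 genes were lower in every mutant than in any control and 1 was higher, where 6.11% and 7.16% of all genes tested were. At E14.5 it was 2 lower and 1 higher (6.71% and 7.02% of all genes), at 12 h 4 lower and 1 higher (5.94% and 5.09%), and at 24 h 3 lower and 2 higher (9.06% and 7.15%). The median log2 difference of the genes tested was -0.44, -0.21, -0.37 and -0.31 in the 4 settings, against 0.02, 0.01, -0.02 and -0.01 over all genes. Since the family was chosen with such differences known, nothing is read from these counts.

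The same holds for the genes that passed. At E11.5, 0 of the 9 genes tested passed with limma (0.0149% of all genes did). That was 1 of 10 at E14.5 (0.0736%) and 2 of 10 at 24 h (0.271%), namely *Frrs1l* at both and *Cnih2* at 24 h. With a term for sex 0 of 10 passed at E14.5 and at 24 h, and with a term for the share of *Gm42418* 0 of 10 at 24 h. At 12 h 0 of 10 passed and 0 genes of the table did (0%), while 650 had an unadjusted p under 0.05, 9 passed in DESeq2 and 0 in edgeR. In the 12 cortices together 0 of 10 passed (0.139% of all genes). For the difference between genotypes in the stage difference 0 genes passed (0%), with 1070 under an unadjusted p of 0.05, 17 in DESeq2 and 0 in edgeR.

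The difference between stages was tested, while that of *Frrs1l*, fitted in the same way, is given only as a description. From E11.5 to E14.5 the subunits, both cornichons and both TARPs rose in controls and in mutants alike, so that 8 of the 9 genes other than *Frrs1l* passed as higher in each genotype and *Cpt1c* did not pass in either. Of all genes tested, 38.7% passed in controls (18.7% higher and 20.0% lower) and 40.8% in mutants (19.1% higher and 21.6% lower). The median log2 difference of the 10 genes was 2.06 in controls and 1.79 in mutants, against -0.08 and -0.07 over all genes. The neuron markers rose with them, from 10479 to 15492 summed counts in the E11.5 controls to 43575 to 47235 at E14.5, and from 10688 to 12119 to 35333 to 38776 in the mutants.

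*Gria1* changed most. It went from 45.3, 32.6 and 65.3 in the E11.5 controls to 551, 642 and 618 at E14.5, a log2 difference of 3.68 ± 0.24 (SE, limma adjusted p = 3.5e-08). In the mutants it went from 19.4, 35.7 and 31.0 to 567, 478 and 493 (4.15 ± 0.24, SE, limma adjusted p = 1.1e-08). *Gria2* rose by 2.69 ± 0.29 (SE) in controls and 3.42 ± 0.29 (SE) in mutants, *Gria3* by 2.67 ± 0.17 and 1.56 ± 0.17, and *Gria4* by 1.90 ± 0.24 and 2.02 ± 0.24. All 4 subunits were higher in every E14.5 cortex than in any E11.5 cortex of the same genotype.

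The auxiliary genes differed in how far they rose. *Cnih2* rose by 1.31 ± 0.16 (SE) on the log2 scale in controls and 1.57 ± 0.16 in mutants. *Cnih3* rose by 3.45 ± 0.50 and 2.22 ± 0.50 from a few reads. *Cacng2* rose by 2.21 ± 0.25 and 2.87 ± 0.25. *Cacng4*, already at 472 to 733 at E11.5, rose by 0.69 ± 0.12 and 0.85 ± 0.12. *Cpt1c* was at 50.3 to 84.8 at E11.5 and 58.1 to 110 at E14.5, with stage differences of 0.35 ± 0.24 (limma adjusted p = 0.27) and 0.52 ± 0.24 (limma adjusted p = 0.099), whose 95% intervals run from -0.16 to 0.87 and from 0.01 to 1.04.

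**Figure D3:**
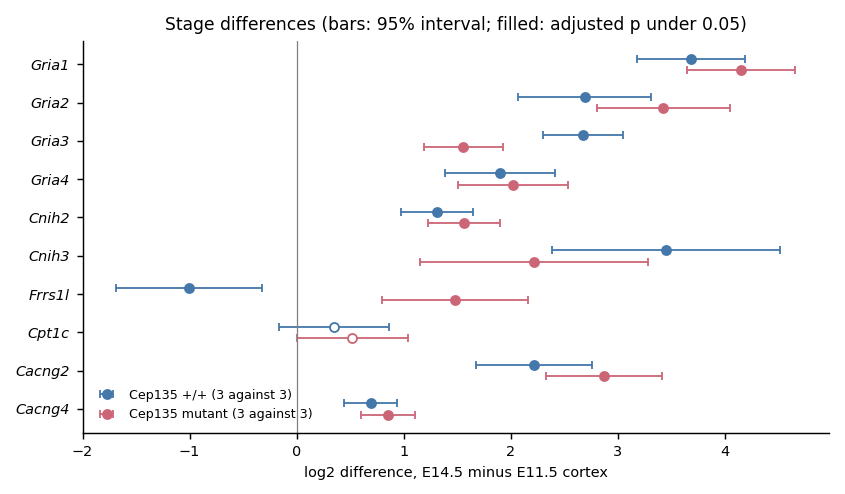
Log2 difference between E14.5 and E11.5 cortex (x axis, log2(value + 1) scale) for each gene (y axis), in blue for *Cep135* (+/+) and in red for mutants, 3 libraries against 3. Bars are 95% intervals, and filled points passed an adjusted p under 0.05 over all genes. *Gria1* lies farthest right in both genotypes, *Cpt1c* is open in both, and *Frrs1l* is left of 0 in controls and at 1.48 in mutants. The E14.5 values of *Frrs1l* chose it, so its filled points are a description and not a test.

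The mix of subunit transcripts changed with stage. The library method takes about 1 read from the 3′ end of each transcript, so each subunit is given as a percent of the summed reads of *Gria1* to *Gria4* in its library, and only the same subunit is compared between settings. *Gria1* made up 9.70% to 14.3% of them in the 6 E11.5 cortices and 21.2% to 26.3% in the 6 E14.5 cortices (exact permutation within genotype, two-sided, p = 0.005, the smallest of 400 arrangements, 0.02 adjusted over 8 such tests). *Gria4* made up 9.86% to 19.7% and then 4.47% to 8.93% (exact permutation p = 0.005, adjusted 0.02). The share of *Gria3* was 20.6% to 34.9% and then 8.30% to 9.41% in mutants, spread most widely at E11.5. In controls it was 8.33% to 13.9% and then 9.28% to 10.8%, and the stages overlapped. Over both genotypes the exact permutation gave p = 0.04, adjusted 0.053. The share of *Gria2* was 34.9% to 56.5% and then 57.5% to 65.0% in mutants, where the stages stood apart. In controls it was 63.6% to 67.5% and then 55.5% to 64.8%, with means of 65.5% and 60.8%. The test adds the differences of the 2 genotypes. These had opposite signs, so p = 0.52 (exact permutation) does not show an unchanged share.

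**Figure D4:**
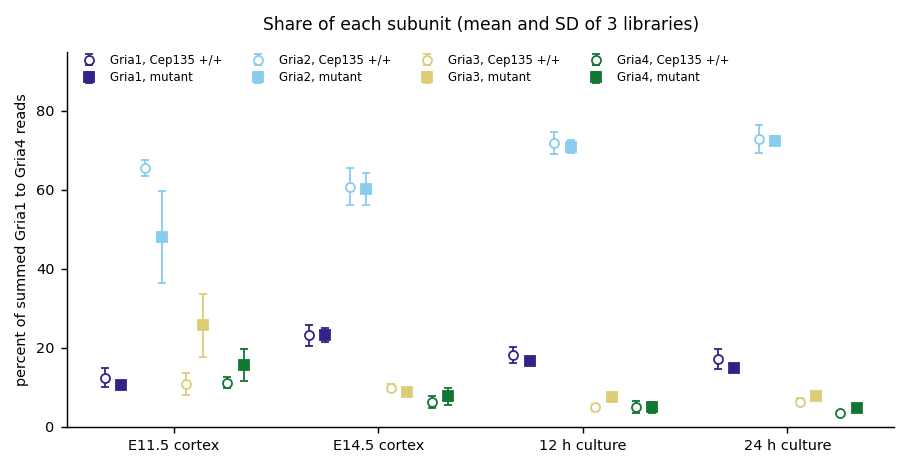
Percent of the summed *Gria1* to *Gria4* reads that each subunit made up (y axis) in the 4 settings (x axis), as mean and SD of 3 libraries, open circles for *Cep135* (+/+) and filled squares for mutants. The share of *Gria1* is higher in E14.5 than in E11.5 cortex, and the share of *Gria2* is highest in culture, at 69.1% to 76.8%. The E11.5 mutants have wide bars for *Gria2* and *Gria3*.

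Compared with the cortex of origin, *Gria1*, *Gria2* and *Cpt1c* rose by 12 h and *Cnih3* fell, so that 3 of 10 genes passed as higher and 1 as lower, where 33.9% of all genes passed, 16.2% higher and 17.7% lower. The count of members that passed is near that share. *Gria2* was 1.55 to 2.82 times its cortex level and higher in 6 of 6 embryos (log2 difference 1.12 ± 0.11, SE, limma adjusted p = 1.9e-07). *Gria1* was also higher in 6 of 6, by 1.10 to 1.94 times (0.47 ± 0.10, SE, limma adjusted p = 0.0011). *Cnih3* was lower in 6 of 6 embryos, at 0.30 to 0.73 of the cortex (-1.16 ± 0.30, SE, limma adjusted p = 0.0050).

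*Cpt1c* rose by 0.70 ± 0.16 (SE, limma adjusted p = 0.0021), with control 5 hardly changed at 109 in cortex and 109 after 12 h. *Gria4* (0.41 ± 0.16, SE, limma adjusted p = 0.057), *Gria3* (0.26 ± 0.13, SE, limma adjusted p = 0.13) and *Cacng2* (-0.42 ± 0.22, SE, limma adjusted p = 0.14) did not pass. With the embryo number as a replicate block, which pairs the libraries of an embryo, 6 of 10 genes passed, *Gria4* as higher (limma adjusted p = 0.029) and *Cacng2* as lower (0.043) besides the 4 above. In culture the microglial markers were near 0 (6.3 to 62.5 summed counts against 388 to 905 in cortex), with *Trem2* at 0 in all 12 h libraries.

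The share of *Gria2* among the subunit reads rose by at least 6.61 percentage points in 6 of 6 embryos between cortex and 12 h, while that of *Gria1* moved by -8.11 to -2.44 points (exact sign-flip permutation p = 0.031 for each, the smallest that 6 embryos allow, adjusted 0.05). The share of *Gria4* also went down in 6 of 6, with the same p, while its normalized read count rose in 5 of 6. The share of *Gria3* went up in 1 of 6 (exact sign-flip permutation p = 0.0625, adjusted 0.071). Since the shares are parts of the same sum, a rise of one lowers the others, and these tests are not separate results.

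Between 12 h and 24 h 0 of the 10 genes passed with limma, DESeq2 or edgeR (0.664% of all genes did). *Gria3* and *Cnih3* were nonetheless higher at 24 h than at 12 h in 6 of 6 embryos, by 1.05 to 1.93 and 1.07 to 2.83 times. *Gria2* reached 2598 to 5030 by then, and *Cnih3* 25.3 to 45.1, below the cortex level of the same embryo in 6 of 6. The culture changes did not differ between genotypes past the threshold: 0 genes passed for the first 12 h (0%, with 954 at an unadjusted p under 0.05, 1 in DESeq2 and 0 in edgeR) and 0 for the second (0%, with 561, and 0 in either tool).

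**Figure D5:**
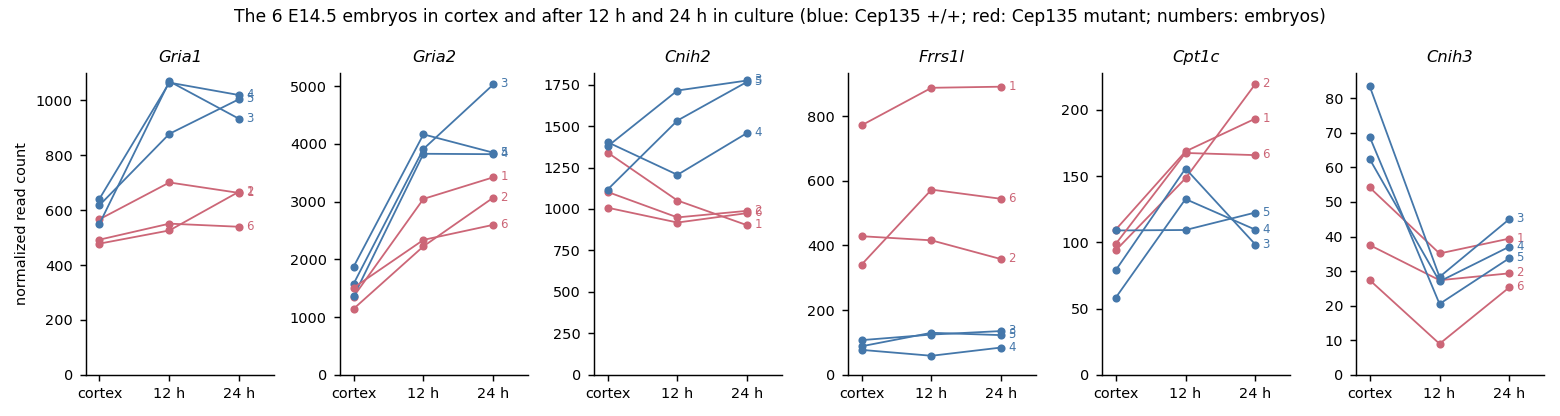
Normalized read counts (y axes, from 0) of 6 of the genes in the 6 E14.5 embryos, in cortex and after 12 h and 24 h in culture (x axes), lines joining the libraries of an embryo and numbers naming it, in blue for *Cep135* (+/+) and in red for mutants. *Gria2* climbs in all 6 embryos by 12 h and *Cnih3* drops in all 6. *Cnih2* in the mutants goes from 1008 to 1340 in cortex to 901 to 989 at 24 h while each control is higher at 24 h than in cortex, and the red *Frrs1l* lines stay above the blue throughout.

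The other genes of the receptor's life cycle were taken from a list of 37 partners. Up to 33 were high enough to be tested. From E11.5 to E14.5, 26 rose and 1 fell in controls, and 22 rose and 1 fell in mutants, where 18.7% and 19.1% of all genes passed as higher and 20.0% and 21.6% as lower. Their median log2 difference was 1.21 and 0.91, against -0.08 and -0.07 over all genes. The secreted and adhesion partners, such as pentraxins and olfactomedins that cluster receptors outside the cell, rose in 8 of 9 tested in both genotypes.

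*Olfm1* rose by 1.63 ± 0.12 (SE) in controls and 1.71 ± 0.12 in mutants, and the pentraxin receptor *Nptxr* by 2.38 ± 0.24 and 2.43 ± 0.24. *Dlg2* (PSD-93), a postsynaptic scaffold, rose by 3.33 ± 0.37 and 3.84 ± 0.37, while its relative *Dlg1* (SAP97) was the gene that fell, by 0.50 ± 0.13 and 0.57 ± 0.13. In controls *Olfm2* and the auxiliary protein gene *Shisa7* were also among the 5 with the smallest p (2.42 ± 0.27 and 1.67 ± 0.21). In mutants these were *Epb41l1* (protein 4.1N, which binds GluA1) and *Gsg1l*, an auxiliary subunit (1.65 ± 0.19 and 2.88 ± 0.34).

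By 12 h in culture 9 of 33 partners rose and 2 fell, where 16.2% of all genes rose and 17.7% fell. The 11 that passed are a share near that of all genes (33.9%), with more rises and fewer falls. Their median was 0.01 against -0.06 over all genes, taken over the 33 tested. *Dlg4* (PSD-95), the main scaffold of excitatory synapses, rose by 0.90 ± 0.08 (SE), the pentraxin *Nptx2* by 1.78 ± 0.23, *Grip1* by 0.57 ± 0.11, the TARP *Cacng5* by 1.39 ± 0.29 and *Nptxr* by 0.62 ± 0.15. *Gsg1l* fell by 2.27 ± 0.54 and *Abhd12* by 0.42 ± 0.13. In the 4 genotype comparisons and in the 12 cortices 0 partners passed with limma, at each stage and time. On the lower side in the mutants were 15 of 27 tested at E11.5, 26 of 33 at E14.5, 24 of 33 at 12 h and 29 of 33 at 24 h, with medians of -0.03, -0.18, -0.13 and -0.17 against 0.02, 0.01, -0.02 and -0.01 over all genes. Of all genes tested, 52.9%, 51.7%, 47.8% and 48.3% were on the higher side in these 4 settings. The neuron markers summed lower in every mutant at E14.5 and 24 h, and their part in these values was not tested.

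Across the 24 libraries, the subunits, cornichons and TARPs followed one another closely, *Cpt1c* less so and *Frrs1l* least. These correlations of log2 values are descriptions over libraries that share embryos, stages and depth. *Gria1* and *Gria2* were closest (r = 0.98). The median r of a gene with the other 9 was 0.91 for *Gria1*, 0.88 for *Gria2* and *Cnih2*, 0.83 for *Gria3* and *Cacng2*, 0.82 for *Gria4*, 0.78 for *Cacng4*, 0.73 for *Cnih3*, 0.49 for *Cpt1c* and 0.05 for *Frrs1l*.

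Of 13678 genes the most alike to *Gria1* were *Celf2*, *Myt1l* and *Hecw1* (r = 0.99 each), and to *Gria2* the synaptic fusion gene *Snap25*, *Arpp21* and *Soga3* (0.99 each). For *Gria3* they were *Elmod1*, *Glra2* and *Cdh13* (0.97 to 0.98), and for *Gria4* the growth cone gene *Gap43*, *Syt6* and *Dpf1* (0.97). For *Cnih2* they were *Rufy3*, *Zfp81* and *Sept3* (0.96), for *Cnih3* *Ttc28*, *Hs3st2* and *A930024E05Rik* (0.90 to 0.91), and for *Cpt1c* *Plcg1* and *Chd6* (0.91 and 0.88). For *Cacng2* they were *Stmn2*, *Ppp2r2b* and *Plcb1* (0.96 to 0.97), and for *Cacng4* *Gnaq*, *Sox4* and *Stmn2* (0.93 to 0.96). For *Frrs1l* the nearest reached no more than 0.79 (*Rpl3-ps1*), 0.71 (*Polk*) and 0.68 (*Gm23442*), and none of the 3 lies on chromosome 4. The mean profile of the 10 genes was most like those of *Chd5*, *L1cam*, *Gnao1*, *Grin2b* and *Myt1l* (r = 0.99 each). *Grin2b* encodes a subunit of the NMDA receptor, the other main glutamate receptor of excitatory synapses.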

How the data were processed

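RNA was measured in 24 libraries from mouse dorsal telencephalon and cultures of it. The authors made stranded 3′ libraries, aligned them with TopHat (TopHat2 2.0.10, Bowtie 1.0.0, SAMtools 0.1.19, per the submitters' processing notes and the study's methods) to GRCm38, counted reads per gene with HTSeq 0.6.1 on GENCODE genes, and deposited 1 table of signal, read counts divided by a size factor per library, called normalized read counts here. Divided by the least nonzero value of its library, each of the 484666 values above 0 came out whole (within 1e-06 of a read), and 100% of reads were recovered this way. In E11.5 control D 1 read is worth 1.01 counts, and its reads were taken by the same rule. No pair of libraries was identical, and n counts embryos.

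The members and lists were chosen with earlier results of these data known. Genes averaging 10 or more in the libraries of a comparison were tested with limma 3.58.1 (moderated, with a mean trend) on log2(value + 1), with Benjamini-Hochberg adjustment over all genes tested and a threshold of 0.05. On this scale the change of low genes is understated. Stage was fitted on the 12 cortices and culture on the 18 E14.5 and culture libraries. Alternatives were pseudocounts of 0.1 and 5, no filter, a mean of at least 50, 2 rescalings, edgeR 4.0.16 and DESeq2 1.42.0 on whole reads, an adjusted p under 0.1, a term for sex, the title prefix as a block, all 24 libraries together, each library left out, and the embryo number as a block. That number pairs libraries because the labels give 1 embryo to each number. Deviations from group means correlated by -0.11 to 0.24 over 18 pairs (median 0.14, 12 above 0.1). The named genes were the 10 members, *Cep135*, of the partners up to 5 per direction and comparison with the smallest p past the threshold, and the 3 genes most alike to each member and 5 to their mean. Some genes are not reported here. Genes near *Frrs1l* and the marker-scaled values were chosen after seeing the data. Positions come from GENCODE vM21 (GRCm38), of which the authors counted on vM20. *Cnih2*, *Cnih3*, *Cpt1c*, *Cacng2* and *Cacng4* overlap genes on the opposite strand, which stranded counting separates. *Gria2*, *Gria3* and *Gria4* hold a miRNA gene and *Cnih3* an unclassified transcript on their own strand, which it does not. The fits were tested on simulated data (R 4.3.3). Protein sequences were not used here.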

Additional observations from a re-analysis of the deposited data

Results flagged for a closer look

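*Frrs1l* was lower at E14.5 than at E11.5 in every control and higher in every mutant, and the difference between these stage differences was 2.48 ± 0.45 on the log2 scale (SE). Its E14.5 values chose the gene, so this difference is given as a description. In the limma fit over all genes it did not pass. The E14.5 embryos carry 1 title prefix and the E11.5 embryos 2 others, so stage and any origin the prefix marks cannot be told apart.

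*Gria3* was higher in every mutant than in any control at E11.5 and lower in every mutant at E14.5. The difference between the genotype differences was -1.11 ± 0.25 (SE), and its value under the alternatives ran from -1.23 to -0.99. The family was chosen with genotype differences known, so this difference is given as a description. In the limma fit over all genes it did not pass.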

How the results depend on the processing

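The counts of genes that passed moved as follows. At E11.5 it was 1 rather than 0 in DESeq2 (*Cacng4*). With a term for sex the genotype difference from E14.5 on rests on mutant 6 alone, so that fit is not counted there. At E14.5 the count was 0 to 1 with a library left out, where *Frrs1l* was lost without control 4 (log2 difference 2.30). At 12 h it was 1 rather than 0, always *Frrs1l*, with a pseudocount of 5, no filter, quantile normalization, DESeq2, an adjusted p under 0.1, all 24 libraries together or a term for *Gm42418*, and 0 to 1 with a library left out (1 without mutant 2, control 5 or mutant 6). At 24 h it was 4 rather than 2 in DESeq2 (*Gria1* and *Cpt1c* besides), 0 with a term for *Gm42418*, and 1 to 2 with a library left out (1 without control 3, control 5 or mutant 6, when *Cnih2* did not pass). In the 12 cortices *Cacng4* made it 1 rather than 0 in edgeR, in DESeq2 and at an adjusted p under 0.1, and 0 to 1 with a library left out (1 without mutant 6). For the difference between genotypes in the stage difference it was 1 in DESeq2. The cause of these moves was not tested. *Frrs1l* at E11.5, close to 0, changed sign with a term for sex (0.045), with a term for *Gm42418* (0.25), and without control F, mutant A or mutant C (0.20, 0.10 and 0.04), over a range of -0.38 to 0.20 with a library left out. Its stage difference in controls, a description, was past the threshold in the main fit and was not without control E, F or 4 (-0.95, -0.74 and -0.89).

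All other directions followed for the members were kept under each alternative run. Among those not followed were the E14.5 genotype differences of *Gria1*, *Gria2* and *Cnih2* and the changes of *Gria3* and *Cnih3* from 12 h to 24 h. The embryo number as a replicate block changed the calls only of *Gria4* and *Cacng2* at 12 h against cortex, where 6 genes passed, and with it 0 passed between 12 h and 24 h and for either difference between genotypes. Upper-quartile rescaling moved the median of all genes in the 12 h against cortex comparison from -0.06 to 0.10 and the share of passing genes that were higher from 47.8% to 67.5%, and that share from 60.0% to 75.0% at E14.5 and from 44.4% to 32.8% at 24 h. Over all genes, 10 passed at E14.5 (1 to 74 under the alternatives) and 36 at 24 h (0 to 190). At 12 h it was 0, and 0 to 7 with a library left out. Depth limits *Cnih3* at E11.5.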
